A study of Drosophila melanogaster with 7 samples.

Results

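The sites described here are the peaks of dCTCF and of BEAF in interphase Kc167 cells, set against each other. Chromatin immunoprecipitation followed by sequencing (ChIP-seq) marks the places where a protein sits on DNA as peaks of recovered fragments, and the authors deposited 1 list of peaks for each of 7 libraries. All peaks of both interphase lists that lay on 2L, 2R, 3L, 3R, 4 or X, called the main arms, were used, 2882 for dCTCF and 5681 for BEAF, together 8563 of the 40204 peaks in the 7 lists. A peak is called shared when it overlapped a peak of the other protein by at least 1 bp, and private when it did not.

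Kc167 is an established cell line from Drosophila melanogaster embryos. Every library came from cells that were fixed, labelled for the mitotic histone mark H3S10ph, stained for DNA with propidium iodide, and separated by sorting into an interphase and a mitotic fraction. dCTCF was precipitated from interphase cells with a mixture of guinea pig and rat antibodies, and BEAF from interphase cells with a rabbit antibody. The other 5 lists are CP190 in interphase, and CP190, dCTCF, BEAF and Su(Hw) in mitosis, and they had no part in choosing the shared and private peaks. Each list is 1 library, so differences could not be set against the spread between replicates, and none was tested. Intervals are 95% intervals for counting error only (Wilson for a share, Newcombe for a difference of shares), and peaks are sites of 1 library, not replicates.

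dCTCF is the fly homolog of vertebrate CTCF and binds DNA through an array of zinc fingers. BEAF, the boundary element-associated factor, binds DNA through a zinc finger of the BED type and is known from the borders of the hsp70 heat shock genes and from the start regions of many widely expressed genes. Both recruit CP190, a BTB-domain protein that does not choose most of its sites by itself and that is thought to bring insulator sites into contact with each other. Su(Hw) is the zinc-finger protein of the gypsy insulator. Depth is unknown, since no read totals come with the lists, and a private peak is one at which the other protein was not called. Each peak has the authors' score, whose range is that of the -10 times log10 p of the peak caller MACS, and scores are used only to rank peaks within 1 list.

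dCTCF and BEAF were called at the same place at nearly as many dCTCF sites as not, whereas most BEAF sites had no dCTCF. Of the 2882 dCTCF peaks, 1399 overlapped BEAF (48.5%, 46.7 to 50.4%) and 1483 did not. Of the 5681 BEAF peaks, 1412 overlapped dCTCF (24.9%, 23.7 to 26.0%) and 4269 did not. The BEAF list is the longer, so these shares differ although they describe the same overlaps. Joined into sites, the peaks made 1364 shared sites with a median width of 814 bp, 1483 sites of dCTCF alone with a median of 600 bp and 4269 sites of BEAF alone with a median of 483 bp. Shared sites were thus 19.2% of the 7116 sites. They were simple in structure: of the 1447 overlapping pairs of peaks, 1287 joined 1 dCTCF peak to 1 BEAF peak, 47 dCTCF peaks overlapped 2 or more BEAF peaks, and 35 BEAF peaks overlapped 2 or more dCTCF peaks. With a reciprocal overlap of 50% required, 30.8% of dCTCF and 15.6% of BEAF peaks were shared. With a score of at least 100 in both lists the shares were 31.4% and 14.4%.

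The share of dCTCF peaks at BEAF sites was highest among the weaker dCTCF peaks and lowest in the fourth quintile of scores. By quintile of dCTCF scores, from the lowest to the highest, 68.5% (64.6 to 72.1%), 64.9% (60.9 to 68.7%), 44.4% (40.4 to 48.4%), 19.4% (16.4 to 22.9%) and 45.5% (41.5 to 49.6%) of the peaks overlapped BEAF. The fourth quintile, with scores of 516.13 to 2054.59, lay below the lowest quintile by 49.0 percentage points (difference -49.0, -53.8 to -43.8) and below the highest, which exceeded it by 26.0 points (20.8 to 31.1). The eighth decile had the lowest share, 47 of 288 peaks (16.3%, 12.5 to 21.0%). Among the 310 dCTCF peaks with a score of 3100 or more, a value that may be a ceiling, 171 overlapped BEAF (55.2%, 49.6 to 60.6%). Shared dCTCF peaks accordingly had a median score of 110.12, with quartiles of 68.395 and 715.425, and private dCTCF peaks a median of 597.48, with quartiles of 122.75 and 1778.31.

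BEAF peaks showed a different and flatter course. From the lowest to the highest quintile of BEAF scores, 17.6% (15.5 to 19.9%), 23.9% (21.6 to 26.5%), 27.1% (24.6 to 29.8%), 21.7% (19.4 to 24.2%) and 33.9% (31.2 to 36.7%) of the peaks overlapped dCTCF. The highest quintile exceeded the lowest by 16.3 points (12.7 to 19.8), while the corresponding difference for dCTCF was -23.0 points (-28.4 to -17.3). The median score was 436.09 for shared and 305.91 for private BEAF peaks. The dip among BEAF peaks was shallow, with 102 of 568 peaks shared in the seventh decile (18.0%, 15.0 to 21.3%) and 176 of 568 in the fifth (31.0%, 27.3 to 34.9%). With a score of at least 100 in both lists the difference between the end quintiles was -10.6 points for dCTCF and 4.07 points for BEAF.

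**Figure D1:**
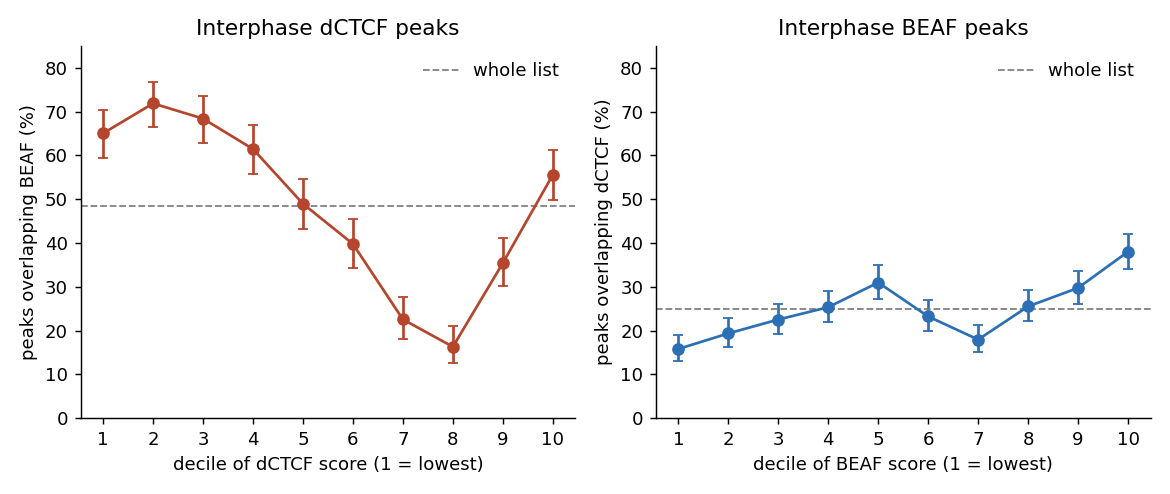
Share of interphase dCTCF peaks overlapping BEAF (left) and of interphase BEAF peaks overlapping dCTCF (right), in percent, by decile of the peak's own score within its list. Points are shares, bars 95% Wilson intervals and the dashed lines the whole lists at 48.5% and 24.9%. The dCTCF curve has its low point of 16.3% in the eighth decile and the BEAF curve stays between 15.8 and 38.0%. The border between the highest 2 dCTCF deciles runs through peaks tied at 3100.

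Wider peaks were shared more often, and this held mainly for the widest. Among dCTCF peaks the share was between 42.1 and 47.7% in the 4 lower quintiles of width and 62.8% (58.8 to 66.7%) in the quintile of 801 to 5288 bp. Among BEAF peaks it was 20.5% (18.2 to 22.9%) in the narrowest quintile and 32.2% (29.6 to 35.0%) in that of 763 to 6285 bp. Shared dCTCF peaks had a median width of 633 bp and private ones of 600 bp, and shared BEAF peaks of 542 bp and private ones of 483 bp. Shared peaks had the larger median width in each quintile of dCTCF scores, with 524 bp for shared and 440 bp for private peaks in the lowest, 606 and 483.5 bp in quintile 2, and 805 and 761 bp in the highest. Within quintiles of BEAF scores this did not always hold. Medians were 389.5 bp for shared and 411 bp for private BEAF peaks in quintile 2, and 762 and 776 bp in the highest. In the remaining BEAF quintiles shared peaks had the larger median. In windows of 400 bp around every midpoint, which take width out of the comparison, 43.7% of dCTCF and 22.3% of BEAF peaks were shared and the fourth dCTCF quintile still lay below the lowest (difference -40.0 points).

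Measured between midpoints, the sites fell into 2 groups, one close to a peak of the other protein and one far from it. From dCTCF to the nearest BEAF midpoint, 652 of 2882 peaks lay within 100 bp (22.6%), 1343 within 500 bp (46.6%) and 1471 within 1000 bp (51.0%), after which 5000 bp took in 61.7% and 20000 bp took in 81.2%. Shared dCTCF peaks had a median distance of 113 bp and private ones of 12516.5 bp. From BEAF to the nearest dCTCF midpoint, shared peaks had a median of 115.25 bp and private ones of 12049 bp. The medians over the whole lists, 801 bp from dCTCF and 7004.5 bp from BEAF, fall in or beyond the gap between the groups and move with the filter, to 7616 and 16912.8 bp with a score of at least 100.

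Few sites lay at the border between shared and private. Of the overlapping pairs, 18 overlapped by at most 50 bp, and 14 private dCTCF peaks and 30 private BEAF peaks ended within 50 bp of the other protein. Only 130 private dCTCF peaks (8.77%) and 367 private BEAF peaks (8.60%) lay within 1000 bp of the edge of a peak of the other protein. Over the whole list, the nearest BEAF midpoint was closer than the nearest dCTCF midpoint for 2106 of 2882 dCTCF peaks (73.1%, 71.4 to 74.7%). Private dCTCF peaks alone had similar median distances, 12516.5 bp to BEAF and 12840.5 bp to other dCTCF. For BEAF peaks the nearest dCTCF midpoint was closer than the nearest BEAF midpoint in 2176 of 5681 cases (38.3%, 37.0 to 39.6%). Both counts include the shared peaks, which lie close to the other protein by definition. BEAF peaks also outnumber dCTCF peaks, which bears on both counts.

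**Figure D2:**
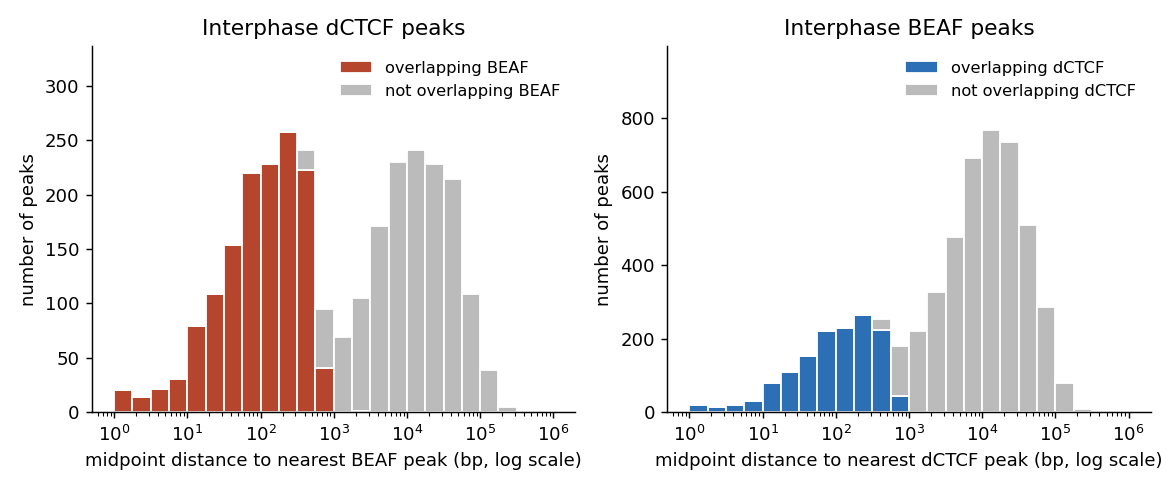
Number of interphase dCTCF peaks (left) and BEAF peaks (right) by the midpoint distance to the nearest peak of the other protein, in base pairs on a log axis. Coloured bars are peaks that overlapped the other protein and grey bars, stacked on them, peaks that did not. Shared peaks gather near medians of 113 and 115.25 bp and private peaks near 12516.5 and 12049 bp.

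Where the proteins overlapped, BEAF peaks of the highest score quintile were the commonest partners of dCTCF peaks in quintiles 1, 2 and 3. Of the 1447 pairs, 404 had a BEAF peak of the highest score quintile (27.9%). From the lowest to the highest dCTCF quintile their share was 32.8% (134 of 408 pairs), 29.6%, 30.6%, 16.1% and 20.7% (56 of 271 pairs). The commonest of the 25 combinations was the lowest dCTCF with the highest BEAF quintile, and the rarest, with 18 pairs, was the fourth dCTCF with the lowest BEAF quintile. The commonest joined the quintiles with the most pairs in each list (408 and 404), and the rarest those with the fewest (118 and 200). Pairs that were strong in both lists existed too, as the 56 with both proteins in their highest quintile show. Over all pairs the Spearman correlation of the score ranks was weak at -0.16, and it was 0.064 with a reciprocal overlap of 50%, so no relation is read from it.

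The midpoints of the proteins lay closer together at strong dCTCF peaks than at weak ones. The median offset between midpoints was 214, 148.5, 96, 89.5 and 76.5 bp from the lowest to the highest dCTCF quintile. Midpoints lay within 100 bp of each other in 33.1% (28.7 to 37.8%) of the pairs with the weakest dCTCF peaks and in 60.1% (54.2 to 65.8%) of those with the strongest. By BEAF quintile the order was the other way round, with 60.0% (53.1 to 66.5%) of pairs within 100 bp in the lowest and 32.2% (27.8 to 36.9%) in the highest. The 2 widest separations were at weak dCTCF peaks on strong BEAF sites, with median offsets of 289.25 bp for dCTCF quintile 2 with BEAF quintile 4 and of 274.25 bp for the lowest dCTCF with the highest BEAF quintile. Pairs of the highest dCTCF with the lowest BEAF quintile had a median of 60.75 bp. Peaks of both proteins were wider at high scores, with medians of 775.5 bp in the highest and 497 bp in the lowest dCTCF quintile, and of 774.5 bp in the highest and 344 bp in the lowest BEAF quintile. The offsets thus moved with width in the opposite direction for dCTCF and in the same direction for BEAF, and the part of width in them was not tested. In all, the BEAF peak lay wholly inside the dCTCF peak in 511 pairs (35.3%), the dCTCF peak inside the BEAF peak in 186 (12.9%), and 750 pairs overlapped in part.

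**Figure D3:**
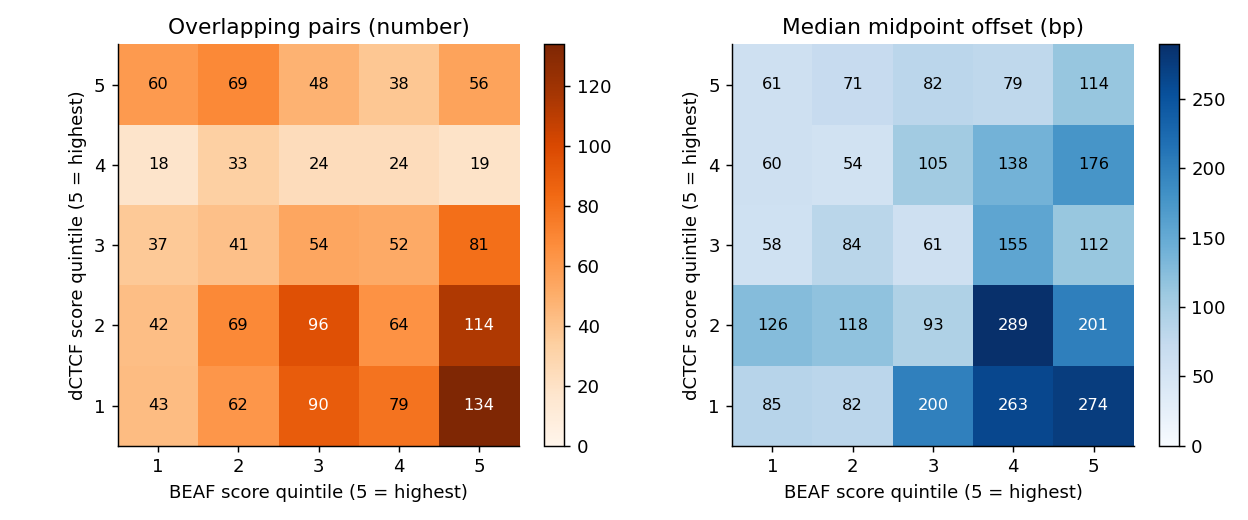
Overlapping pairs of 1 interphase dCTCF and 1 interphase BEAF peak by the score quintile of dCTCF (vertical) and of BEAF (horizontal). The left panel gives the number of pairs and the right panel the median distance between midpoints in base pairs. The cell of the lowest dCTCF and highest BEAF quintile holds the most pairs, 134, with an offset of 274.25 bp, against 60 pairs and 60.75 bp for the highest dCTCF and lowest BEAF quintile.

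The large arms were alike in the overlap of dCTCF and BEAF, and chromosome 4 stood apart for BEAF. On 2L, 2R, 3L, 3R and X the shared share of dCTCF peaks ranged between 46.1% on 2L and 51.1% on 3R with overlapping intervals, and that of BEAF peaks between 23.1% on 2R and 26.8% on 3R. On chromosome 4, a small chromosome with much heterochromatin-like chromatin, 10 of 26 dCTCF peaks (38.5%, 22.4 to 57.5%) and 10 of 85 BEAF peaks (11.8%, 6.52 to 20.3%) were shared. The upper bound for BEAF there is below the lower bounds of the other arms, which start at 20.7%. Relative to the highest peak end on each arm, chromosome 4 had the most BEAF peaks per Mb (62.9, against 42.8 to 53.0 elsewhere) and the fewest dCTCF peaks per Mb (19.3, against 21.7 to 26.1). It had 30.6 dCTCF peaks per 100 BEAF peaks, against 48.0 to 55.0 on the other arms.

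The dependence on the dCTCF score was present on each large arm, with the largest contrast on X. In the lowest 2 quintiles of dCTCF scores, 175 of 231 peaks on X were shared (75.8%, 69.8 to 80.8%), against 60.6 to 68.0% on the autosomal large arms. In the fourth quintile 15 of 130 peaks on X were shared (11.5%, 7.12 to 18.2%), against 16.8 to 23.8%. In the lowest 2 quintiles the interval of X lay above those of 2L and 3L and overlapped those of 2R, 3R and 4, and in the fourth quintile it overlapped those of all the other arms. Median scores of shared dCTCF peaks lay between 102.08 on X and 115.06 on 3L, and those of private dCTCF peaks between 473.49 on 2R and 814.095 on X. For BEAF the median of shared peaks exceeded that of private peaks on all 5 large arms, with 631.15 and 305.91 on 3R, whereas on chromosome 4 the 10 shared peaks had a median of 210.65 and the 75 private ones of 387.84.

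Interphase CP190, called at 76.2% of all dCTCF and 72.6% of all BEAF peaks, was commoner at shared than at private sites of either protein. CP190 overlapped 88.8% (87.1 to 90.4%) of shared and 64.2% (61.7 to 66.6%) of private dCTCF peaks, a difference of 24.7 points (21.7 to 27.6). It overlapped 88.7% (87.0 to 90.3%) of shared and 67.3% (65.9 to 68.7%) of private BEAF peaks, a difference of 21.5 points (19.2 to 23.6). The differences were unequal along the scores. In dCTCF quintiles 3 and 4 CP190 was at 93.0% and 99.1% of shared peaks and at 48.0% and 51.5% of private ones, while in the highest quintile it was at all 262 shared peaks (98.6 to 100%) and at 95.2% of private ones. For BEAF the difference was 34.3 points (27.9 to 39.7) in the lowest quintile and 6.95 points (4.59 to 9.20) in the highest. With a reciprocal overlap of 50% the differences were 11.5 points for dCTCF and 7.40 points for BEAF.

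Counted the other way, dCTCF peaks with CP190 overlapped BEAF far more often than those without it. The shares were 56.6% (54.5 to 58.7%) of 2195 peaks with CP190 and 22.7% (19.7 to 26.0%) of 687 peaks without it. In the fourth dCTCF quintile 111 of 350 peaks with CP190 overlapped BEAF (31.7%, 27.1 to 36.8%), and without CP190 only 1 of 226 did (0.442%, 0.0782 to 2.46%). In the lowest quintile the gap was smaller, with 72.9% (68.5 to 76.8%) and 54.3% (46.0 to 62.4%). BEAF peaks overlapped dCTCF in 30.4% (29.0 to 31.8%) of 4125 cases with CP190 and in 10.2% (8.81 to 11.8%) of 1556 without it. The CP190 peaks themselves ranked higher in their own list at shared than at private sites. Their median score percentile was 85.6 at shared and 77.2 at private dCTCF peaks, and 85.9 at shared and 53.7 at private BEAF peaks.

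At sites with 1 peak each of dCTCF, BEAF and CP190, the CP190 midpoint mostly lay nearer to BEAF where dCTCF was weak, and nearer to dCTCF where dCTCF was strongest. Such sites numbered 998, of which 2 had equal distances. The CP190 midpoint was nearer to dCTCF than to BEAF at 438 of 996 (44.0%, 40.9 to 47.1%), and the median distances were 112.5 bp to dCTCF and 82 bp to BEAF. From the lowest to the highest dCTCF quintile the share was 32.1% (26.6 to 38.2%), 37.7%, 43.3%, 55.6% (45.3 to 65.4%) and 59.8% (53.3 to 66.0%), and the highest exceeded the lowest by 27.7 points (18.8 to 36.0). By BEAF quintile it was 51.1% (42.8 to 59.3%) in the lowest and 31.6% (26.5 to 37.2%) in the highest. Median distances differed little at strong dCTCF peaks, with 83.25 bp to dCTCF and 95 bp to BEAF in the highest dCTCF quintile. In the fourth dCTCF quintile they were 81.75 and 78.25 bp. The part of peak width in these positions was not tested. Where dCTCF was in its 2 lowest and BEAF in its 2 highest quintiles, CP190 lay nearer to dCTCF at 76 of 269 sites (28.3%, 23.2 to 33.9%), with median distances of 171 bp to dCTCF and 69 bp to BEAF. Where dCTCF was in its 2 highest and BEAF in its 2 lowest quintiles, the count was 86 of 149 (57.7%, 49.7 to 65.4%), with 70 bp to dCTCF and 81.5 bp to BEAF. With a score of at least 100 in the 3 lists CP190 was nearer to dCTCF at 50.1% (45.7 to 54.5%) of 503 sites, while the highest dCTCF quintile still exceeded the lowest by 22.9 points.

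**Figure D4:**
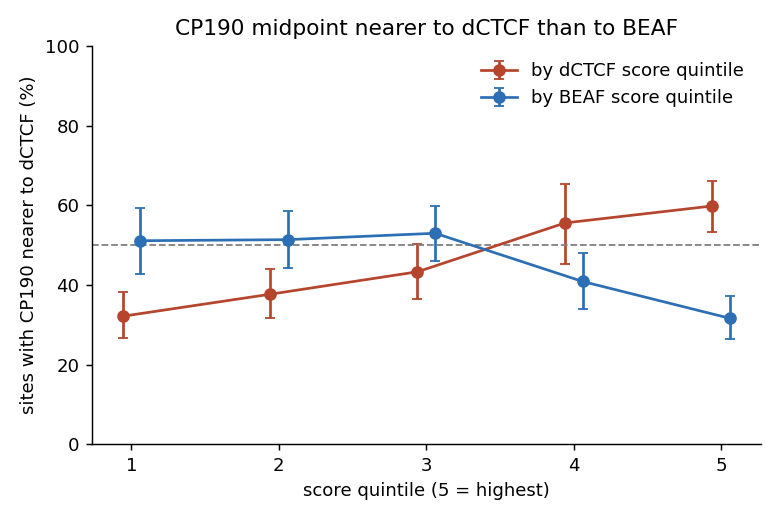
Share of sites with 1 dCTCF, 1 BEAF and 1 CP190 interphase peak at which the CP190 midpoint was nearer to the dCTCF than to the BEAF midpoint, in percent, by score quintile of dCTCF and of BEAF. Points are shares, bars 95% Wilson intervals and the dashed line marks equal numbers. By dCTCF quintile the share goes from 32.1 to 59.8%, and by BEAF quintile from 51.1 to 31.6%.

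The mitotic lists were called more often at shared than at private interphase sites over the whole lists. Within score quintiles this did not hold for BEAF at BEAF peaks, nor for Su(Hw) in dCTCF quintiles 1 and 2. The shared class requires interphase BEAF at dCTCF peaks and interphase dCTCF at BEAF peaks, which bears on the mitotic lists of the same proteins. Mitotic CP190 lay at 43.8% of all dCTCF and 33.2% of all BEAF peaks. At dCTCF peaks it was at 60.4% (57.8 to 62.9%) of shared and 28.2% (26.0 to 30.5%) of private ones, and at BEAF peaks at 61.5% (58.9 to 64.0%) of shared and 23.9% (22.6 to 25.2%) of private ones. For BEAF this gap was present in each score quintile, between 29.2 and 43.6 points. In the lowest BEAF quintile 119 of 200 shared peaks (59.5%, 52.6 to 66.1%) and 149 of 937 private peaks (15.9%, 13.7 to 18.4%) had mitotic CP190.

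Mitotic BEAF overlapped 42.1% of all BEAF and 23.2% of all dCTCF peaks. It overlapped 47.4% (44.8 to 49.99%) of shared and 40.4% (38.9 to 41.8%) of private BEAF peaks, a difference of 7.02 points (4.03 to 10.0). Within quintiles of BEAF scores the difference ranged between -2.36 and 1.63 points and every interval included 0. In the fourth quintile, for example, 87.4% (82.7 to 91.0%) of shared and 86.5% (84.1 to 88.6%) of private BEAF peaks had mitotic BEAF. With scores of 100 or more only, the overall difference was 2.43 points (-1.78 to 6.67). Only 7 of the 1483 private dCTCF peaks had mitotic BEAF (0.472%, 0.229 to 0.971%), against 663 of the 1399 shared ones. Private dCTCF peaks lack interphase BEAF by definition. Mitotic BEAF had 2432 peaks on the main arms, and 2392 interphase BEAF peaks overlapped one. The contrast at dCTCF peaks is therefore tied to the rule that made the classes, and it is not read as a separate result.

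Mitotic dCTCF overlapped 33.8% of all dCTCF and 29.8% of all BEAF peaks. At dCTCF peaks it lay at 48.2% of shared and 20.2% of private ones. From the lowest to the highest quintile of dCTCF scores it lay at 47.3%, 52.4%, 38.3%, 18.8% and 65.6% of shared peaks. The shares of private peaks were 29.7%, 14.9%, 4.98%, 9.27% and 49.7%. The difference was largest in quintile 2, at 37.6 points (30.04 to 44.12). Interphase BEAF sites without an interphase dCTCF call had mitotic dCTCF in 996 of 4269 cases (23.3%, 22.1 to 24.6%), and shared BEAF peaks in 696 of 1412 (49.3%, 46.7 to 51.9%). The mitotic dCTCF peaks at those private BEAF sites ranked lower, with a median percentile of 47.7 in their list, against 71.7 at shared BEAF peaks. Their median width was 954 bp, against 1019 bp at shared BEAF peaks.

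Su(Hw) in mitosis, the least frequent of the lists, lay at 6.90% of all dCTCF and 5.25% of all BEAF peaks. It overlapped 8.93% (7.55 to 10.5%) of shared and 4.99% (3.99 to 6.22%) of private dCTCF peaks. In the lowest dCTCF quintile, however, the shares were 4.56% of shared and 8.79% of private peaks, a difference of -4.23 points (-9.51 to -0.0696). In dCTCF quintile 2 the difference was 0.368 points (-4.78 to 4.77). For BEAF the shares were 9.21% (7.81 to 10.8%) of shared and 3.94% (3.39 to 4.56%) of private peaks, and the difference was positive in each quintile. Shared peaks had the larger median width in both lists, though not in BEAF score quintiles 2 and 5, as given above. In 400 bp windows the differences for interphase CP190 were 24.0 points at dCTCF and 20.8 points at BEAF peaks, and the part of width in the shares of the mitotic dCTCF, CP190 and Su(Hw) lists was not tested.

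**Figure D5:**
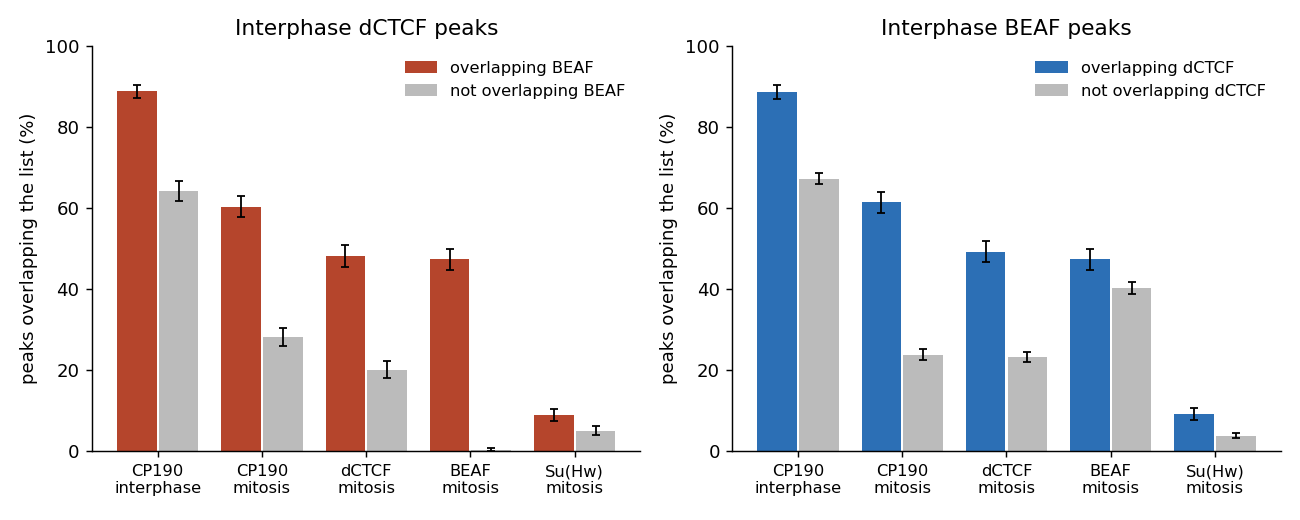
Share of interphase dCTCF peaks (left) and BEAF peaks (right) that overlapped a peak of each of the other 5 lists, in percent, for peaks shared with the other protein (coloured) and private ones (grey), with 95% Wilson intervals. Interphase CP190 lay at 88.8% of shared and 64.2% of private dCTCF peaks, and mitotic BEAF at 47.4% of shared and 40.4% of private BEAF peaks.

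Peaks that no other of the 7 lists shared were of different strength in the 2 proteins. There were 453 such dCTCF peaks, 30.5% of the private ones, and 789 such BEAF peaks, 18.5% of the private ones. Those of dCTCF were concentrated in score quintiles 3 and 4, with 162 of 577 peaks (28.1%, 24.6 to 31.9%) and 200 of 576 (34.7%, 30.9 to 38.7%), while the lowest quintile had 38 and the highest 3. Only private peaks can be counted here, and they numbered 182, 202, 321, 464 and 314 from the lowest to the highest dCTCF quintile. Those of BEAF were weak. They made up 316 of 1137 peaks in the lowest BEAF quintile (27.8%, 25.3 to 30.5%), 37 of 1136 in the fourth, and 0 of 1136 in the highest (0 to 0.337%). Private BEAF peaks in these quintiles numbered 937, 889 and 751. The other lists include the same protein in mitosis. Mitotic BEAF lay at 86.5% and 99.9% of private BEAF peaks in quintiles 4 and 5, so few peaks there could be counted. Mitotic dCTCF lay at 4.98% and 9.27% of private dCTCF peaks in quintiles 3 and 4. On chromosome 4, 46 of 85 BEAF peaks were called in no other list (54.1%, 43.6 to 64.3%), against 9.55 to 14.9% on the other arms, while the dCTCF share there was 4 of 26.

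Individual sites show each of these kinds. Positions are those of the authors' lists, 1-based, with the sequence names of Drosophila release 5, and were not assigned to genes. Peaks tied at a score of 3100 were ranked in genome order, so the choice among them carries no order of strength. Of the 8 shared pairs that ranked highest in both lists, all 8 had mitotic BEAF and interphase and mitotic CP190, and 6 had mitotic dCTCF. Over all shared peaks of the highest quintile, mitotic BEAF lay at 99.7% and mitotic CP190 at 75.8% of BEAF peaks, and mitotic dCTCF at 65.6% of dCTCF peaks. Mitotic CP190 lay at 92.7% of these dCTCF peaks, and interphase CP190 at all 262 of them and at 99.0% of the BEAF peaks. The dCTCF peak at 2R 20898745 to 20899790 and the BEAF peak at 2R 20898771 to 20899760 both scored 3100 and had midpoints 2 bp apart. At this site CP190 scored 3100 in interphase and 1254.04 in mitosis. At 3L 16948138 to 16948833 dCTCF scored 3152.38 and BEAF 3100, with midpoints 112 bp apart, and dCTCF was called in mitosis with 805.4. At X 18529126 to 18529848 dCTCF and BEAF both scored 3100, their midpoints lay 275 bp apart, and all 5 other lists had a peak, including Su(Hw) with 113.99.

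Among the 4 pairs with the strongest dCTCF relative to BEAF, all had interphase CP190 and none had mitotic BEAF. This is near the background, since CP190 was at all 262 shared dCTCF peaks of the highest dCTCF quintile and mitotic BEAF at 4 of 200 shared BEAF peaks of the lowest BEAF quintile. The dCTCF peak at 3R 27288301 to 27289482 scored 3100 over a BEAF peak of 305 bp at 27288787 to 27289091 that scored 50.73, close to the floor of 50. At 2R 15520147 to 15520833 dCTCF scored 3223.52 and BEAF 55.77, midpoints were 14.5 bp apart, and interphase CP190 (1965.86) was the only other call. Such pairs would be counted as private at a slightly higher BEAF threshold. The 4 pairs with the strongest BEAF relative to dCTCF all had interphase CP190 and mitotic BEAF, which lay at 99.0% (CP190) and 99.7% (mitotic BEAF) of all shared BEAF peaks in the highest BEAF quintile. At X 11746331 to 11746653 dCTCF scored 50.03 within a BEAF peak at X 11746211 to 11746744 that scored 3100, with mitotic BEAF at 1116.48. At 3R 14100465 to 14100884 dCTCF scored 51.33 and lay 456 bp from the midpoint of a BEAF peak of 926 bp that scored 3100.

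The strongest private sites of both proteins are given as examples of their score class. In the highest quintile, interphase CP190 lay at 95.2% of private dCTCF and 92.0% of private BEAF peaks. Mitotic BEAF lay there at 0.637% of private dCTCF and 99.9% of private BEAF peaks. The shares with mitotic CP190 were 59.6% of private dCTCF and 46.6% of private BEAF peaks. Those with mitotic dCTCF were 49.7% of private dCTCF and 29.96% of private BEAF peaks. The 8 highest scoring private dCTCF peaks lay 2213.5 to 37765 bp from the nearest BEAF midpoint. All 8 had interphase CP190, 7 had mitotic CP190, 4 had mitotic dCTCF and none had mitotic BEAF. The highest, X 16640679 to 16641441, scored 3230.05 and had a CP190 peak of 282.62, and 3L 7006731 to 7007305, with 3218.75, lay 33805.5 bp from BEAF. The 8 highest scoring private BEAF peaks lay 1018 to 28171.5 bp from the nearest dCTCF midpoint. All 8 had interphase CP190 and mitotic BEAF, 4 had mitotic CP190 and 3 had mitotic dCTCF. The highest, 3R 5338320 to 5339276, scored 3233.06 and had mitotic BEAF with 1018.05, and X 15356298 to 15356965, with 3204.9, lay farthest from dCTCF. On chromosome 4 the strongest shared dCTCF peak, at 507013 to 507814, scored 3116.22 with CP190 in both phases and mitotic BEAF at 165.68. The strongest private BEAF peak there, at 64216 to 64749, scored 3124.39 with mitotic BEAF at 2417.56 and no CP190 call.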

How the data were processed

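Kc167 chromatin was sonicated to 200 to 1000 bp and precipitated after sorting of the cells, per the labels' protocols. The aligner was Bowtie 0.12.5 according to the submitters' processing notes. For each library the authors deposited 1 peak list with a score per peak. Peak names begin with MACS, but the score's meaning, the threshold, any control library and the genome build stood in no source used here, so no peak sequence or gene was read. A score also depends on depth, which is unknown.

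Overlap, midpoint distance and score quintiles (ties in genome order) were computed on the 6 main arm sequences with Python 3.11.15, NumPy 2.4.6, pandas 2.3.3 and SciPy 1.17.1, and figures drawn with matplotlib 3.10.9. On simulated partners of the real dCTCF peaks 2882 of 2882 were classed correctly, and bedtools 2.31.1 gave equal overlaps in all 84 of 84 comparisons of 2 lists. Groups came from the sample titles. The members, lists and named-peak rule were chosen with earlier results of these data known. Named peaks were the 8 shared pairs highest in both lists, the 8 strongest private peaks per protein, the 4 most unequal pairs each way and the strongest of each class on chromosome 4. Alternatives were a reciprocal overlap of 50%, windows of 400 bp, a score of at least 100, equal numbers of the highest scoring peaks and all sequences.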

Additional observations from a re-analysis of the deposited data

Results flagged for a closer look

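Overlap of dCTCF with BEAF was also present outside the main arms, in sequences that the comparisons above did not use. Of the 1080 dCTCF peaks there, 38.7% (35.8 to 41.6%) overlapped BEAF, and of the 2299 BEAF peaks 18.9% (17.3 to 20.5%) overlapped dCTCF. On Uextra, the collection of unplaced sequence, the counts were 369 of 899 dCTCF peaks (41.0%) and 385 of 1888 BEAF peaks (20.4%). On U, also unplaced, fewer were shared, 22 of 121 dCTCF peaks (18.2%, 12.3 to 26.0%) and 22 of 174 BEAF peaks (12.6%, 8.50 to 18.4%). On the mapped heterochromatin sequences 27 of 60 dCTCF peaks (45.0%, 33.1 to 57.5%) and 27 of 237 BEAF peaks (11.4%, 7.95 to 16.1%) were shared.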

How the results depend on the processing

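The overlap itself depended on the rule and on list length, and the contrasts kept their direction with the exceptions named here. With a reciprocal overlap of 50%, 30.8% of dCTCF and 15.6% of BEAF peaks were shared, the highest dCTCF quintile stood at -14.3 points from the lowest, CP190 was commoner at shared peaks by 11.5 points (dCTCF) and 7.40 points (BEAF), CP190 was nearer to dCTCF at 47.7% of sites, and the rank correlation over pairs turned to 0.064. In 400 bp windows the shares were 43.7% and 22.3% and the quintile differences -13.8 points (dCTCF) and 12.2 points (BEAF). With a score of at least 100 the shares were 31.4% and 14.4%, the quintile differences -10.6 and 4.07 points, the median distances 7616 bp from dCTCF and 16912.8 bp from BEAF, the CP190 differences 34.7 and 29.6 points, the mitotic BEAF difference 2.43 points, and CP190 was nearer to dCTCF at 50.1% of sites, which turned that direction. The lists are then shorter. With the 2882 highest scoring peaks of each list the shares were 27.9% and 27.0%, the median distance from dCTCF 10152.8 bp, the CP190 difference at BEAF peaks 15.5 points and the mitotic BEAF difference 3.88 points. Over all sequences the shares were 45.9% and 23.1%, the median distances 1396.25 and 7587.75 bp, the CP190 differences 12.99 and 26.8 points and the mitotic BEAF difference 14.7 points. What moved these values, shorter lists included, was not tested.

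The fourth dCTCF quintile lay below the lowest under all 5 alternatives, by 23.9 to 47.8 points (differences of -23.9 to -47.8), a contrast chosen after seeing the data, as were the CP190 position by quintile and the rank correlation. Of the 36 named peaks, 18 were shared, 12 with a reciprocal overlap of 50% and 16 in 400 bp windows. No paired analysis was possible because each group is 1 library, and no replicate could be left out. Depth is unknown, so an absent call does not show absent binding.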

Other observations

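Along the arms, sites of each class were followed by one of the same class more often than its share of all sites. The gap was widest for dCTCF alone. Ordered along each arm, the next site after a site of dCTCF alone was again one in 40.9% (38.4 to 43.4%) of 1482 cases, while such sites made up 20.8% of all. After a shared site the next was of dCTCF alone in 19.9% (17.8 to 22.1%) of cases and after a site of BEAF alone in 14.1% (13.1 to 15.2%). The next site after a shared site was shared in 23.2% of 1364 cases, against 19.2% over all sites. After a site of BEAF alone it was again one of BEAF alone in 67.8% of 4264 cases, against 60.0% over all sites.

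In the 117 full bins of 1 Mb on the 5 large arms, dCTCF had a median of 24 peaks (6 to 51) and BEAF of 45 (10 to 79). Bins with more dCTCF than BEAF peaks numbered 4, and the most uneven was 2L 17000001 to 18000000 with 27 dCTCF and 12 BEAF peaks. Among the 27 bins with at least 30 dCTCF peaks the shared share of dCTCF was lowest, 27.8%, at 3R 8000001 to 9000000 (10 of 36), and highest, 75%, at X 16000001 to 17000000 (27 of 36) and 2R 5000001 to 6000000 (24 of 32). These bins were picked after their values were seen.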
